A study of Mus musculus with 16 samples.

Results

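Collagen VI, collagen XII and collagen XIV are matrix collagens that do not form the thick banded fibrils themselves. They are followed here through 5 mouse genes, Col6a1, Col6a2, Col6a3, Col12a1 and Col14a1, among the 18193 genes with a probe set on the array. A probe set was taken when the platform annotation gave it exactly 1 gene symbol and that symbol was one of these names, which gave 11 probe sets of the 45037 tested: 1 for Col6a1, 2 for Col6a2, 1 for Col6a3, 4 for Col12a1 and 3 for Col14a1. Transcript abundance was measured in the ascending aorta and in the aortic valve of mice aged 30 days that carried either 2 intact copies of Eln, the elastin gene (Eln+/+), or were heterozygous for it (Eln+/-), and the labels do not say how the allele was altered. The valve pieces were dissected with cusp, annulus and root together, so they were no pure cusp tissue. The 4 combinations of tissue and genotype had 4 arrays each, 1 specimen to an array with nothing pooled and no treatment. Whether equal numbers in aorta and valve mark 1 mouse is not stated, and for Eln+/+ numbers 2 and 4 the sex-linked signal given below shows that they do not. The p-values measure the spread between these specimens.

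The α chains encoded by Col6a1, Col6a2 and Col6a3 join into one collagen VI molecule, whose tetramers line up end to end as beaded microfilaments in the matrix close to cells. Collagen XII (Col12a1) and collagen XIV (Col14a1) are fibril-associated collagens with interrupted triple helices: each is built from identical chains and sits on the surface of collagen I fibrils, collagen XII above all in tissues that bear tension. In a valve cusp, collagen-rich, proteoglycan-rich and elastin-rich layers lie on each other, whereas the wall of the aorta holds elastic lamellae with smooth muscle cells and collagen between them.

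The deposited values read as ratios of a probe set's signal to its median over all arrays, which the labels do not describe: the median of the values was 1 for 39827 of 45101 probe sets and for 10 of the 11 here, and lower for the rest. They are given here on the log2 scale, so for a probe set with a median of 1 a value of 0 means that the array equals the median, and nothing can be said of which gene is expressed more. As a check of the labels, Eln by its probe set of highest SD averaged 0.30 ± 0.19 (SD, n = 4) in aorta Eln+/+ and -0.12 ± 0.35 in aorta Eln+/-, and -0.44 ± 0.58 in valve Eln+/+ and -1.71 ± 0.78 in valve Eln+/-. The genotype difference of Eln did not pass in either tissue (limma, adjusted p 0.900 in the aorta and 0.395 in the valve). Several arrays stood apart. Valve Eln+/- replicate 3 had the lowest mean of the 10 smooth muscle markers (-2.18), the highest of the 12 cardiac muscle markers (2.58) and the lowest 3' minus 5' signal of the Gapdh and beta-actin control probe sets (-0.34), a measure of how evenly the transcripts were copied. Aorta Eln+/- replicates 2 and 4 held thymocyte markers at 2.80 and 1.58, against -0.30 to 0.42 on the other arrays. Xist minus the Y-linked genes lay between 0.27 and 0.82 on all 8 Eln+/- arrays. On 2 Eln+/+ arrays it was 0.66 (aorta replicate 4) and 0.84 (valve replicate 2). It was far below 0, down to -11.0, on the remaining Eln+/+ arrays, so genotype and sex-linked signal go together on most arrays. Among these were aorta replicate 2 (-10.7) and valve replicate 4 (-11.0), so in Eln+/+ the equal numbers 2 and 4 do not mark 1 mouse.

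RefSeq promoter windows, each running from 250 bases before to 50 bases after the gene start, were found for the collagen VI genes (GRCm38.p6) and are shown because these chains moved together across the arrays. Col6a1 and Col6a2 are neighbouring protein-coding genes on chromosome 10, both on the minus strand, while Col6a3 lies on chromosome 1, Col12a1 on chromosome 9 and Col14a1 on chromosome 15. The windows are written 5′ to 3′ on the gene's strand, and capitals mark the motif letters found by a search on both strands for an AP-1 element (TGANTCA), the CCAAT box, a GC box (GGGCGG) and a TATA box (TATAAA).
Col6a1, chr10:76725995-76726294: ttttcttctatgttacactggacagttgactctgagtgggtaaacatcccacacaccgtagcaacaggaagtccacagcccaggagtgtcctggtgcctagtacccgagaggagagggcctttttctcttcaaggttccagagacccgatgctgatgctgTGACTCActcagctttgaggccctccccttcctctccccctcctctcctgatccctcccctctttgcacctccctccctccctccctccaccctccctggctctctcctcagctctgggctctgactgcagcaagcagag
Col6a2, chr10:76623355-76623654: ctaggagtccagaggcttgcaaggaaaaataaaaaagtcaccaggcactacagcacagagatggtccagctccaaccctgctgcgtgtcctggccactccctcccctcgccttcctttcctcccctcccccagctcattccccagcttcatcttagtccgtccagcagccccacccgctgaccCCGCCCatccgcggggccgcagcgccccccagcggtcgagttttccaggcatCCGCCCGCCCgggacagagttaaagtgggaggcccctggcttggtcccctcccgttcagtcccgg
Col6a3, chr1:90843922-90844221: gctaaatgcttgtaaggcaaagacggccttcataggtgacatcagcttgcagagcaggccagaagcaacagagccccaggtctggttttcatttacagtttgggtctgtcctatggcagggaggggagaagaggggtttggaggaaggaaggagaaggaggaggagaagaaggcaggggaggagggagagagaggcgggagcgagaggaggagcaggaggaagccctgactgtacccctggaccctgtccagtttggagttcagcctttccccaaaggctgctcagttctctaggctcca
The Col6a1 window held the AP-1 letters TGACTCA from 90 bases before the gene start, the Col6a2 window held 3 GC boxes on the reverse strand from 67, 15 and 11 bases before it, the last pair overlapping, and the Col6a3 window held none of the 4 motifs. RefSeq gives a second Col6a2 window, chr10:76623581-76623880, which held 1 GC box from 175 bases before its start and had a GC content of 56.7%. The GC content was 57.3% for Col6a1, 64.3% for the Col6a2 window shown and 56.3% for Col6a3. Over the 32851 promoter windows in the RefSeq table an AP-1 element stood in 7.81%, a CCAAT box in 37.4%, a GC box in 35.7% and a TATA box in 13.6%. Matches to the CCAAT and GC boxes are thus common, and those to the AP-1 element and the TATA box less so. The collagen VI chains shared none of the 4 motifs. Col12a1 and Col14a1 are named only.

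The first comparison asked how the valve differs from the aorta, as the mean of both genotypes over all 16 arrays. Col12a1 rose in the valve and Col6a2 fell, and Col6a1, Col6a3 and Col14a1 had lower valve means that did not pass. Thus 1 of the 5 genes rose and 1 fell, and by probe sets 1 of 11 rose and 2 of 11 fell. Over all probe sets 8.04% passed, 4.40% higher and 3.64% lower in the valve. The median difference of the 11 probe sets was -0.37 on the log2 scale and that of all probe sets was -0.038.

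Col12a1 encodes the chain of collagen XII. Its log2 ratios in aorta Eln+/+ replicates 1 to 4 were -1.19, -0.69, -0.62 and -2.16, and in aorta Eln+/- they were -0.41, -0.023, 0.023 and -1.80. In valve Eln+/+ they were 0.36, 0.13, 0.33 and 0.18, and in valve Eln+/- they were 0.12, 0.14, -0.67 and 0.47. Thus 7 of the 8 valve arrays lay above all 8 aorta arrays, and the exception was valve Eln+/- replicate 3. Replicate 4 of both aorta groups lay far below the rest. The valve exceeded the aorta by 0.99 ± 0.27 (SE) log2 units (95% interval 0.41 to 1.58), a 1.99-fold difference with an adjusted p of 0.0352 in limma. Without valve Eln+/- replicate 3 the difference was 1.11 (adjusted p 0.0264), and without aorta Eln+/- replicate 4 it was 0.79 (adjusted p 0.0479).

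The Col12a1 call was close to the threshold. It ended when any 1 of 9 arrays was left out: aorta Eln+/+ replicates 1 and 4, aorta Eln+/- replicate 1, valve Eln+/+ replicates 1, 3 and 4, and valve Eln+/- replicates 1, 2 and 4. The difference in those fits ran from 0.83 to 1.02 and the adjusted p from 0.0558 to 0.0686. The remaining Col12a1 probe sets also had higher valve means, by 0.41 (adjusted p 0.246), 0.29 (adjusted p 0.148) and 0.099 (adjusted p 0.821), but none passed. Their array-to-array deviations correlated with those of the shown probe set at r = 0.49, 0.010 and 0.65 over 16 arrays, so the probe sets of this gene did not vary as one. With the mean of the 4 probe sets the gene stood at 0.45 (adjusted p 0.0514).

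**Figure D1:**
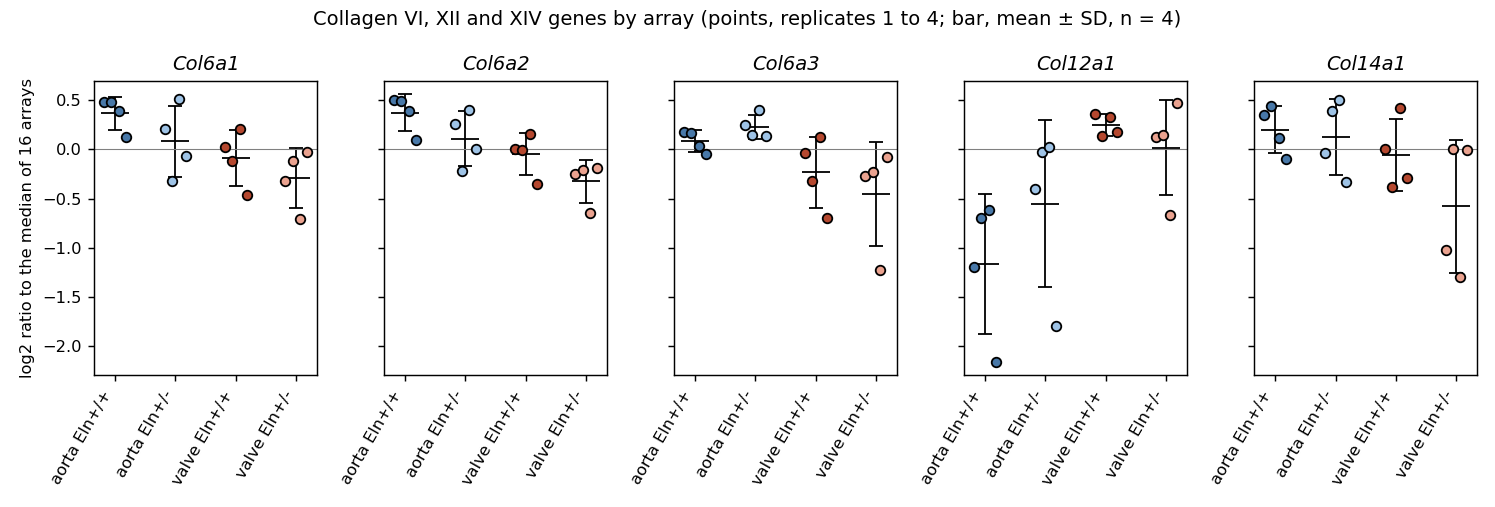
Log2 ratio to the median of the 16 arrays (y axis) for the shown probe set of each gene, 1 point per array, in the 4 groups of tissue and genotype (x axis). Bars give the mean ± SD of 4 arrays. Col12a1 is lowest in aorta Eln+/+ and its valve arrays lie above 0 except 1, while the collagen VI genes and Col14a1 have their lowest mean in valve Eln+/-.

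The collagen VI chains had lower values in the valve. For Col6a2, in aorta Eln+/+ replicates 1 to 4 the log2 ratios were 0.50, 0.49, 0.40 and 0.10, and in aorta Eln+/- they were 0.26, -0.22, 0.40 and -5.4e-05. In valve Eln+/+ they were 5.4e-05, -0.0091, 0.16 and -0.35, and in valve Eln+/- they were -0.25, -0.21, -0.65 and -0.19. All 8 valve arrays lay below the aorta median of 0.33, yet the tissues overlapped: 5 aorta arrays lay above all valve arrays and 3 valve arrays lay below all aorta arrays. The valve was at 0.743 of the aorta ratio, a log2 difference of -0.43 ± 0.12 (SE; 95% interval -0.68 to -0.18) with an adjusted p of 0.0354 in limma. The second Col6a2 probe set, annotated to the same transcript, stood at -0.39 (adjusted p 0.0485). The shown Col6a2 probe set is of a type some of whose probes can match other sequences, and the second one is not of that type. In bulk tissue, fewer cells of a type and less RNA per cell cannot be told apart.

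The Col6a2 call too was close to the threshold. Leaving out any 1 of 9 arrays ended it, with differences of -0.44 to -0.37 and adjusted p of 0.0541 to 0.0779: aorta Eln+/+ replicates 1, 2 and 3, aorta Eln+/- replicates 1 and 3, valve Eln+/+ replicates 1 and 4, and valve Eln+/- replicates 1 and 3. Without valve Eln+/- replicate 3 the value was -0.37 (adjusted p 0.0773).

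Col6a1, the chain gene next to Col6a2, stood at 0.48, 0.48, 0.39 and 0.12 in aorta Eln+/+, at 0.20, -0.32, 0.51 and -0.069 in aorta Eln+/-, at 0.023, -0.12, 0.20 and -0.46 in valve Eln+/+, and at -0.32, -0.12, -0.71 and -0.024 in valve Eln+/-. All valve arrays again lay below the aorta median, and the tissue difference was -0.42 ± 0.14 (SE; 95% interval -0.72 to -0.12; adjusted p 0.0899). It passed at -0.48 (adjusted p 0.0351) without aorta Eln+/- replicate 2. Col6a3, which encodes the longest of the 3 collagen VI chains here, stood at 0.18, 0.17, 0.038 and -0.046 in aorta Eln+/+, at 0.24, 0.14, 0.40 and 0.14 in aorta Eln+/-, at -0.039, -0.32, 0.13 and -0.70 in valve Eln+/+, and at -0.27, -0.23, -1.23 and -0.080 in valve Eln+/-. Here 6 of the 8 valve arrays lay below all aorta arrays. The Col6a3 difference was -0.50 ± 0.16 (SE; 95% interval -0.84 to -0.17; adjusted p 0.0664), and it passed without valve Eln+/+ replicate 3 (-0.56, adjusted p 0.0479) and without valve Eln+/- replicate 4 (-0.56, adjusted p 0.0448).

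Col14a1, the collagen XIV gene, spread most within the valve. Its shown probe set had log2 ratios of 0.35, 0.44, 0.12 and -0.099 in aorta Eln+/+ and of -0.039, 0.39, 0.50 and -0.33 in aorta Eln+/-. In valve Eln+/+ the values were 0.0088, -0.39, 0.43 and -0.29, and in valve Eln+/- they were -1.02, 0.0070, -1.30 and -0.0070. Replicates 1 and 3 of valve Eln+/- were the lowest of all arrays, 3 of the 8 valve arrays lay below all aorta arrays, and the other valve arrays overlapped the aorta. The tissue difference was -0.49 ± 0.21 (SE; 95% interval -0.93 to -0.047) and did not pass (adjusted p 0.187), nor did those of the other Col14a1 probe sets, -0.37 (adjusted p 0.280) and -0.22 (adjusted p 0.435).

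Within a single genotype none of the 5 genes passed, in Eln+/+ where 0.946% of all probe sets passed or in Eln+/- where 5.81% did, while 5 and 6 of the 11 probe sets had an unadjusted p under 0.05 in limma, against 11.8% and 19.0% of all probe sets. In Eln+/+ mice Col12a1 was 1.42 ± 0.39 (SE) log2 units higher in the valve, 2.67-fold (95% interval 0.59 to 2.24 in log2; adjusted p 0.119), and its groups of 4 did not overlap, as held in that direction for 3.59% of all probe sets. Without aorta Eln+/- replicate 4, an array outside this contrast that enters the estimate of the spread, the adjusted p was 0.0351. In Eln+/- mice Col12a1 differed by 0.57 ± 0.39 (SE; adjusted p 0.481), by 0.80 without valve Eln+/- replicate 3 and by 0.15 without aorta Eln+/- replicate 4. In Eln+/+ and Eln+/- mice Col6a1 stood at -0.46 and -0.38, Col6a2 at -0.42 and -0.43, and Col6a3 at -0.32 and -0.68. The Eln+/- groups of Col6a3 did not overlap, as held in that direction for 5.42% of all probe sets, and without valve Eln+/- replicate 3 the Col6a3 value in Eln+/- was -0.43. In Eln+/+ the Col6a3 value was -0.16 without valve Eln+/+ replicate 4. The Col6a1 value in Eln+/- was -0.23 without aorta Eln+/- replicate 3 and -0.24 without valve Eln+/- replicate 3. Of Col14a1 the values were -0.26 in Eln+/+, where they ran from -0.43 without valve replicate 3 to -0.15 without valve replicate 2, and -0.71 in Eln+/-, which was -0.47 without valve Eln+/- replicate 3. Whether the tissue difference depended on genotype is the same contrast as the interaction given below.

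**Figure D2:**
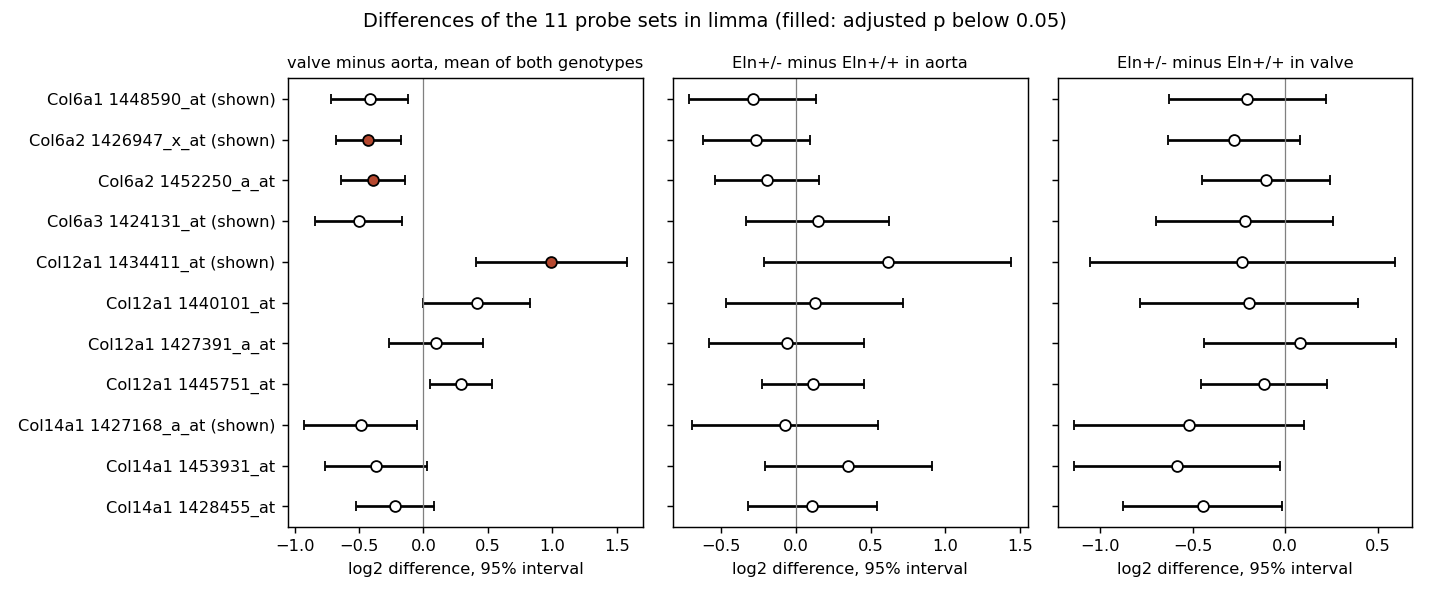
Log2 differences with 95% intervals (x axis) of the 11 probe sets (y axis) for valve minus aorta as the mean of both genotypes and for Eln+/- minus Eln+/+ in each tissue; filled points passed an adjusted p of 0.05 in limma. The filled points are 1 Col12a1 probe set at 0.99 and both Col6a2 probe sets at -0.43 and -0.39, all in the tissue comparison.

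Other measures moved with tissue too. The 3' minus 5' control signal averaged 0.016 ± 0.078 (SD) in aorta Eln+/+, 0.015 ± 0.19 in aorta Eln+/-, -0.093 ± 0.055 in valve Eln+/+ and -0.15 ± 0.14 in valve Eln+/-. Its deviations from the group means followed those of Col6a1 and Col6a2, at r = 0.86 for each over 16 arrays. For Col6a3, Col12a1 and Col14a1 the values over 16 arrays were 0.65, 0.59 and 0.58. Within the 8 aorta arrays Col6a1, Col6a2, Col6a3, Col12a1 and Col14a1 stood at 0.94, 0.90, 0.91, 0.55 and 0.58. Within the 8 valve arrays they stood at 0.78, 0.82, 0.83, 0.75 and 0.68. Within each tissue Col6a3 thus followed the control signal about as closely as the other collagen VI chains. With that signal as a covariate Col6a2 no longer passed, at -0.22 (adjusted p 0.313), Col6a1 stood at -0.15, Col6a3 at -0.27 and Col14a1 at -0.20. Col12a1 then stood at 1.38 (adjusted p 0.0114), and in Eln+/+ alone at 1.72, past the threshold (adjusted p 0.0366). All 4 genes with lower valve means thus had smaller differences in this fit, and Col12a1 had a larger one.

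**Figure D3:**
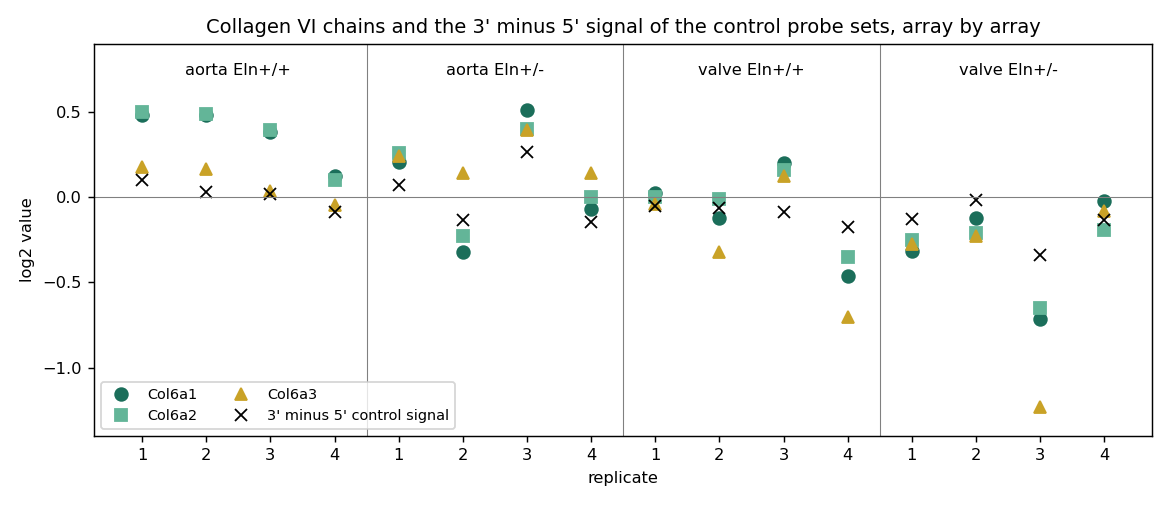
Log2 ratios of Col6a1, Col6a2 and Col6a3 and the log2 3' minus 5' signal of the control probe sets (y axis) on each of the 16 arrays (x axis, replicates 1 to 4 in each group). Valve Eln+/- replicate 3 is the lowest array in each chain and in the control signal.

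Cell type markers differed between the tissues as well, where 4.40% of all probe sets rose in the valve and 3.64% fell. All 12 cardiac muscle markers rose in the valve, with group means of -3.11 in aorta Eln+/+, -2.96 in aorta Eln+/-, 1.18 in valve Eln+/+ and 1.99 in valve Eln+/-. Of the 10 smooth muscle markers 7 fell in the valve, and the group means were 0.38, 0.18, -0.25 and -1.19 in the same order. Of the 8 fibroblast markers 3 rose and 1 fell, with group means of -0.22, -0.13, 0.17 and -0.050, and of the 7 cartilage-type markers 5 rose. Of the 7 endothelial markers 3 rose. Array by array the smooth muscle mean followed Col6a1 (r = 0.74), Col6a2 (0.76) and Col6a3 (0.68) and less Col14a1 (0.39) and Col12a1 (0.10). In the same order these were 0.81, 0.84, 0.79, 0.72 and 0.73 within the 8 valve arrays. Within the 8 aorta arrays they were 0.66, 0.69, 0.36, -0.39 and -0.27. The fibroblast mean followed Col12a1 at 0.60 and Col14a1 at 0.52, Col6a3 at 0.22, and Col6a1 and Col6a2 at -0.02 each. In the same order these were 0.66, 0.72, 0.81, 0.82 and 0.84 within the 8 valve arrays. Within the 8 aorta arrays they were 0.60, 0.76, 0.17, -0.22 and -0.21, so values over 16 arrays pool tissues that differed. Within the 8 valve arrays the adipocyte mean followed Col6a1 at 0.93, Col6a2 at 0.86 and Col6a3 at 0.82. Within the 8 aorta arrays it ran the other way, at -0.51, -0.59 and -0.35, and over 16 arrays at -0.05, -0.16 and 0.25. Several other means followed these chains about as closely within 1 tissue. In the same order the cardiac muscle mean stood at -0.76, -0.75 and -0.67 in the valve and at 0.63, 0.55 and 0.73 in the aorta. The cartilage-type mean stood at 0.33, 0.34 and 0.54 in the valve and at 0.85, 0.90 and 0.78 in the aorta. For the thymocyte mean they were 0.11, 0.24 and 0.04, and -0.82, -0.82 and -0.59. The part of these cell types in the tissue differences of the collagen genes was not tested, and heart muscle content and tissue cannot be told apart, since every valve array had a higher cardiac muscle mean than every aorta array.

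The next comparison asked how Eln+/- and Eln+/+ valves differ. Among the valve arrays genotype and the sex-linked signal parted only at Eln+/+ replicate 2, so they can barely be told apart. None of the 5 genes passed in limma, and 0% of all probe sets did. At an unadjusted p under 0.05 stood 2 of the 11 probe sets, both of Col14a1, and 8.60% of all probe sets. All 5 genes had lower means in Eln+/- than in Eln+/+ valves: Col14a1 differed by -0.52 ± 0.29 (SE; 95% interval -1.14 to 0.10; adjusted p 0.648), Col6a2 by -0.28 (0.675), Col12a1 by -0.23 (0.911), Col6a3 by -0.22 (0.828) and Col6a1 by -0.20 (0.819). In total 10 of the 11 probe sets were lower, with a median of -0.22 against 0.011 over all probe sets. For Col14a1 the other probe sets stood at -0.58 (unadjusted p 0.0410, adjusted p 0.557) and -0.45 (unadjusted p 0.0436, adjusted p 0.565). The groups of 4 overlapped in every one of the 11 probe sets, where 5.04% of all probe sets had groups that did not.

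Leaving out single arrays moved the valve values. Without valve Eln+/- replicate 3, the array lowest in smooth muscle markers and highest in heart muscle markers, Col14a1 stood at -0.28, Col6a2 at -0.17, Col6a1 at -0.065, Col12a1 at -0.0025 and Col6a3 at 0.040. Without valve Eln+/+ replicate 3 Col6a1 stood at -0.11 and Col6a3 at -0.099, and without valve Eln+/+ replicate 4 they stood at -0.33 and -0.38. Without valve Eln+/- replicate 4 Col6a3 stood at -0.34 and Col12a1 at -0.38. The cardiac muscle mean was higher in Eln+/- than in Eln+/+ valves for all 12 markers, with 0 past the threshold. All 10 smooth muscle markers (median -0.99), all 6 mesothelial markers (median -0.53) and all 4 adipocyte markers (median -0.51) were lower in Eln+/- valves, with 0 past the threshold in limma. Added as a covariate to a fit of valve arrays alone, the cardiac muscle mean left Col6a3 at 0.23, Col6a1 at 0.13, Col12a1 at 0.084, Col14a1 at -0.029 and Col6a2 at -0.034. Adjusted for the difference of Xist and the Y-linked genes, Col14a1 stood at -0.22, Col6a2 at -0.17, Col6a3 at -0.12, Col6a1 at -0.082 and Col12a1 at 0.28. Adjusted for the 3' minus 5' signal, Col14a1 stood at -0.39, Col6a2 at -0.18, Col6a3 at -0.12, Col6a1 at -0.087 and Col12a1 at -0.061.

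**Figure D4:**
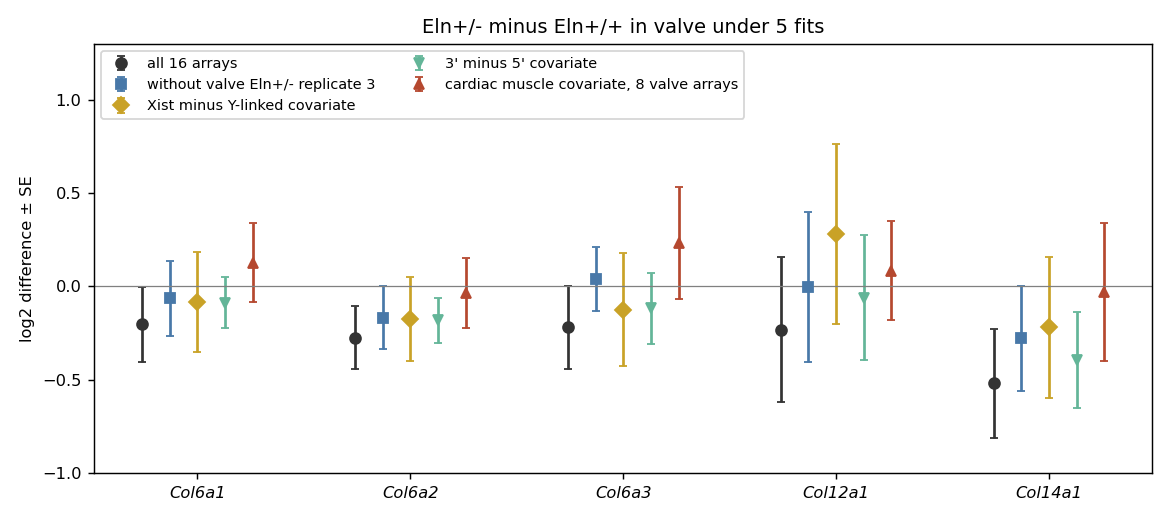
Eln+/- minus Eln+/+ in the valve (log2 difference ± SE, y axis) for the 5 genes (x axis) under 5 fits: all 16 arrays, without valve Eln+/- replicate 3, and with the Xist, the 3' minus 5' or the cardiac muscle covariate. Col14a1 moves from -0.52 with all arrays to -0.029 with the cardiac muscle covariate, and Col6a3 from -0.22 to 0.23.

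The same question was asked of the aorta, where genotype and the sex-linked signal parted only at Eln+/+ replicate 4. None of the 5 genes passed in limma and 0% of all probe sets did. At an unadjusted p under 0.05 stood 0 of the 11 probe sets and 5.51% of all probe sets. Col12a1 was 0.62 ± 0.39 (SE; 95% interval -0.21 to 1.44; adjusted p 0.897) higher in Eln+/-, Col6a3 0.15 ± 0.22 higher (adjusted p 0.950), Col6a1 at -0.29 ± 0.20 and Col6a2 at -0.26 ± 0.17 (adjusted p 0.897 each), and Col14a1 at -0.072 ± 0.29 (adjusted p 0.985). The groups overlapped in all 11 probe sets, where 2.84% of all probe sets had groups that did not. For Col12a1 the low replicate 4 of each genotype set much of the spread: without aorta Eln+/- replicate 4 the difference was 1.03 and without aorta Eln+/+ replicate 4 it was 0.28. The other Col12a1 probe sets stood at 0.13, -0.059 and 0.12, and the mean of all 4 at 0.20. Of the collagen VI chains Col6a1 and Col6a2 were lowest in Eln+/- replicate 2, and Col6a3 was not. That array was the highest in thymocyte markers and the lowest of the aorta arrays in smooth muscle markers (-0.68). Without that array Col6a1 and Col6a2 stood at -0.15 each, and without aorta Eln+/- replicate 3 Col6a1 stood at -0.43. Leaving out aorta Eln+/- replicates 2 and 4 together put Col6a1 at -0.0093 and Col6a2 at -0.041.

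Neither gene by gene nor by probe set did the genotype effect differ between the tissues past the threshold in limma (0% of all probe sets passed, and 7.72% of them and 1 of the 11 had an unadjusted p under 0.05). The genotype effect in the valve minus that in the aorta was -0.85 ± 0.55 (SE; 95% interval -2.01 to 0.32; adjusted p 0.710) for Col12a1, -0.45 for Col14a1, -0.37 for Col6a3, 0.082 for Col6a1 and -0.012 for Col6a2. One further Col14a1 probe set stood at -0.93 (unadjusted p 0.0231, adjusted p 0.628). By group means Col6a1 and Col6a2 ran in the order aorta Eln+/+ (0.37 for each), aorta Eln+/- (0.082 and 0.11), valve Eln+/+ (-0.089 and -0.051) and valve Eln+/- (-0.29 and -0.33), and neighbours in that order differed by less than the larger of their SDs, except for Col6a2 between valve Eln+/+ (SD 0.21) and valve Eln+/- (SD 0.22). Col6a3 ran from aorta Eln+/- (0.23 ± 0.12, SD) over aorta Eln+/+ (0.085 ± 0.11) and valve Eln+/+ (-0.23 ± 0.36) to valve Eln+/- (-0.45 ± 0.53), and Col14a1 from aorta Eln+/+ (0.20 ± 0.24) over aorta Eln+/- (0.13 ± 0.39) and valve Eln+/+ (-0.061 ± 0.37) to valve Eln+/- (-0.58 ± 0.68). Col12a1 had the reverse order of tissues: aorta Eln+/+ -1.17 ± 0.71 (SD), aorta Eln+/- -0.55 ± 0.85, valve Eln+/- 0.019 ± 0.49 and valve Eln+/+ 0.25 ± 0.11.

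Which genes varied alike across the arrays was described by Pearson's r of the deviations from the group means over 16 arrays, which share their amplification, their control signal and the markers above. Col6a1 and Col6a2 were each other's closest gene among 18192, at r = 0.97 (0.98 within the 8 aorta and 0.97 within the 8 valve arrays). Col6a3 followed Col6a1 at 0.83 and Col6a2 at 0.79, and within each tissue at 0.90 to 0.96. The genes most like Col6a3 were P4hb, a subunit of prolyl 4-hydroxylase that modifies collagen chains, and Col5a2, a fibrillar collagen chain, at 0.94 each. Then came Fstl1 and Postn, a matricellular protein gene, at 0.91 each, and Col1a1, the major collagen I chain, at 0.88. Without the 2 arrays of farthest Col6a3 deviation these 5 genes stood at 0.80, 0.82, 0.73, 0.70 and 0.80. For Col14a1 the closest gene was Col3a1, the collagen III chain, at 0.94 (0.85 in the aorta and 0.97 in the valve). Edem1, Tuft1, Stim1 and Snhg5 came next at 0.85 to 0.88, Edem1 with 0.50 in the aorta and 0.99 in the valve. Col12a1 was least like the rest, and it followed Col14a1 at 0.66 and the collagen VI chains at 0.48 to 0.50. Its closest genes were Obox2 at 0.92, Cdc25b at 0.88, Fam107a at 0.86, Mpeg1 at 0.85 and Rasgef1b at 0.83. Without the 2 arrays of farthest Col12a1 deviation these were 0.77, 0.69, 0.71, 0.78 and 0.59. Within the valve Rasgef1b stood at 0.32. After Col6a2, the genes most like Col6a1 were Lama5, a laminin chain gene, Fendrr, Taok2 and Actg1 at 0.86 to 0.87. After Col6a1, those most like Col6a2 were Taok2, Itgav, an integrin chain gene, Zfp469 and Ccp110 at 0.88 to 0.89.

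The genes around these collagens were counted in the tissue comparison, where 4.40% of all probe sets rose in the valve and 3.64% fell. Over all 18193 genes, each by its probe set of highest SD, 1060 rose and 692 fell. Of 12 other collagen VI chains and collagens with interrupted helices 3 rose in the valve, Col9a1 by 2.93 and Col9a3 by 2.66, chains of the cartilage collagen IX, and Col16a1 by 0.46, and 0 fell. The Col16a1 call was lost in 14 of 25 alternatives (adjusted p up to 0.0726) and held in 5 of the 16 runs that left out 1 array. Of 11 fibrillar collagens 4 rose, the cartilage-type chains Col2a1 by 2.11, Col11a1 by 2.02 and Col11a2 by 0.97, and Col5a3 by 0.87, and 0 fell. Col3a1, the gene most like Col14a1, stood at -0.44 (adjusted p 0.0636). The collagen IX chain gene Col9a2 did not pass. The rises in Col2a1, Col9a1, Col9a3, Col11a1 and Col11a2 stood beside those of the cartilage-type markers Sox9 (1.81) and Chad (2.30). Of the 7 markers of that list 5 rose, Col2a1 itself among them, and Acan at -0.11 and Matn3 at -0.68 did not pass. The part of cartilage-type cells in these rises was not tested.

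Of 15 matrix partners 7 rose and 0 fell, among them Comp by 3.92, Thbs1 by 2.44, Fmod by 2.31 and Lum by 1.08. Fmod and Lum encode small proteoglycans that bind collagen fibrils. Another of the 7 was Vwa1, which rose by 0.62. The Vwa1 call was lost in 13 of 25 alternatives (limma adjusted p up to 0.158) and held in 7 of the 16 runs that left out 1 array. Of 10 receptor genes 1 fell, Cspg4, the NG2 proteoglycan that binds collagen VI, by 1.02 on the log2 scale, and 0 rose. The Cspg4 call was lost in 10 of 25 alternatives (adjusted p up to 0.240) and held in 8 of the 16 runs that left out 1 array. Antxr2, the anthrax toxin receptor that takes up collagen VI, stood at 0.42 (adjusted p 0.0671), the collagen-binding integrin chain gene Itga1 at -0.64 (adjusted p 0.0644) and the collagen receptor kinase gene Ddr1 at 0.41 (adjusted p 0.0522). Of 16 genes of collagen synthesis and secretion 2 rose and 4 fell. Colgalt2, a collagen galactosyltransferase gene, rose by 1.06 and P4ha3 by 1.01, while P4hb fell by 0.45, P4ha2 by 0.45, Plod2 by 0.72 and Crtap by 0.45. The Crtap call was lost in 16 of 25 alternatives (limma adjusted p up to 0.278) and held in 4 of the 16 runs that left out 1 array. Of 9 protease and protease-enhancer genes 1 rose, Pcolce by 0.55, and 2 fell, Pcolce2 by 0.73 and Mmp9 by 0.72. The Pcolce call was lost in 13 of 25 alternatives (adjusted p up to 0.154) and held in 4 of the 16 runs that left out 1 array. In the genotype comparisons 0 of the 73 genes in these 6 lists passed in either tissue with limma, as 0% of all probe sets did. At an unadjusted p under 0.05 stood 4 of the 73 in the aorta and 11 in the valve, against 5.51% and 8.60% of all probe sets.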

How the data were processed

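RNA of 16 specimens, amplified from small amounts and used without pooling, was hybridised to Affymetrix Mouse Genome 430 2.0 arrays, per the labels. RMA is named in the submitters' processing notes. The deposited values read as linear ratios to the median of the probe set over the 16 arrays. No label states such a division, and it is inferred from the file: of 45101 medians, 39827 equalled 1 within 1e-06, 5274 were lower and 0 higher. No level is kept, so no filter on dim probe sets was possible. The genome build is not given in the sources used here.

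Log2 ratios of 45037 probe sets, without 64 control probe sets, were fitted with limma 3.58.1 in R 4.3.3, with 4 group means on 16 arrays. Two-sided p-values were adjusted by Benjamini-Hochberg over all probe sets and called at 0.05. The number of arrays, 4 in each group, limits the precision. Where a gene had several probe sets, the one of highest SD is shown and the others serve as a check. List genes were named as up to 4 of lowest p in each list, with others where a call was lost under alternatives. Like genes were named as the 5 of highest r. Array medians ran from 0.957 to 1. A run of the fit on simulated data covered only valve minus aorta in Eln+/+. Random signs there removed effects shared across an array, so that run says nothing of those. Alternatives were another pseudocount, scaling, array weights, fewer groups, mean of probe sets, replicate block, leaving out arrays, and covariates. The members and lists were chosen with earlier results of these data known. Of 167 listed names 156 were measured.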

Additional observations from a re-analysis of the deposited data

Results flagged for a closer look

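Among 44 groups of 4 arrays tested over the 11 probe sets, 3 held an array far from the others by Dixon's criterion at its 95% critical value, where chance alone flags about 1 in 20 groups. Valve Eln+/- replicate 3 stood apart in Col6a2, at a log2 ratio of -0.65 with a gap of 0.866 of the group's range, and in Col6a3, at -1.23 with a gap of 0.831. The same array had the lowest 3' minus 5' control signal (-0.34) and the highest cardiac muscle mean (2.58), and the part of either in the low collagen VI values was not tested by itself. In valve Eln+/+, replicate 3 stood apart in a Col14a1 probe set that is not the shown one, at 0.55 with a gap of 0.845, while the shown probe set was also highest there, at 0.43.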

How the results depend on the processing

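Of 775 values of the 5 genes under alternatives, 719 kept their direction and their side of the threshold, 23 lost a call, 9 gained one and 24 turned in sign. All of those that turned were values that did not pass. Of 600 values of the list genes that passed in the mean tissue comparison 527 kept their call and 73 lost it. Of the 73 lost, 16 were for Crtap, 14 for Col16a1, 13 each for Pcolce and Vwa1 and 10 for Cspg4. A further 2 each were for P4ha2, Plod2 and Mmp9 and 1 for P4hb. The number of genes past the threshold in the mean tissue comparison was 2, with a range of 0 to 3 when 1 array was left out and 5 of 16 such runs within 1.5 times the main number; it was 1 with the 3' minus 5' covariate. In Eln+/+ tissue it was 0, with a range of 0 to 1 on leaving out arrays, 1 without aorta Eln+/- replicates 2 and 4 together and 1 with the 3' minus 5' covariate. Fewer arrays left fewer degrees of freedom in each such fit. Over all probe sets the mean tissue comparison had 3620 past the threshold, from 1506 to 4750 under the alternatives, Eln+/+ tissue 426, from 173 to 692, and Eln+/- tissue 2615, from 1070 to 3457.

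With the replicate number as a block 0 of the genes passed in the mean tissue comparison (Col12a1 adjusted p 0.0824, Col6a2 adjusted p 0.0793), against 2 without it. The labels do not say whether equal numbers share a mouse, and by the sex-linked signal Eln+/+ numbers 2 and 4 do not. Same-numbered arrays correlated at -0.146 to 0.0711 in their deviations from group means, with 0 of 4 pairs over 0.1 in each pair of groups. The block thus rests on a number only.

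Values that turned in sign were these. Col14a1 in the aorta stood at 0.13 with the mean of all probe sets, 0.028 without Eln+/- replicates 2 and 4 together, 0.22 with the Xist covariate and between -0.20 and 0.083 on leaving out 1 array. In the valve the cardiac muscle covariate gave 0.13 for Col6a1, 0.23 for Col6a3 and 0.084 for Col12a1, the Xist covariate gave 0.28 for Col12a1, and Col6a3 ran from -0.38 to 0.040 on leaving out 1 array. The interaction of genotype and tissue was, for Col6a1, -0.015 with array weights, -0.19 without aorta Eln+/- replicates 2 and 4 and between -0.052 and 0.23 on leaving out 1 array. For Col6a2 it was 0.037 with the mean of probe sets, 0.079 with the 3' minus 5' covariate and between -0.12 and 0.096 on leaving out 1 array. The cause was not tested. A fit of only the groups compared could not be had for the mean tissue comparison and the interaction, which use all groups. Ratios to a median hold no signal over background, so the precision of dim probe sets is unknown.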
